A study of Rattus norvegicus with 4 samples.

Results

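The Cyp3a subfamily of rat liver was followed in 4 RNA-seq libraries. Its members were the 5 named genes *Cyp3a23/3a1*, *Cyp3a2*, *Cyp3a9*, *Cyp3a18* and *Cyp3a62*, chosen by symbol among 16999 named genes, and no other named Cyp3a symbol was listed. The libraries came from livers of wild type rats that inhaled sevoflurane at 4.5% or desflurane at 6%, which are halogenated agents for general anesthesia. For each agent, the control (0 h) was decapitated as soon as it lost consciousness, and the other group (6 h) was decapitated after 6 h of anesthesia, so that the controls had also received the agent for a short time. Total RNA was converted to stranded libraries with a kit that removes ribosomal RNA. Each of the 4 groups had a single library, and the sources used here do not give the number of animals behind a library or their strain, sex and age. Values therefore have no replicate error, and the comparisons within an agent have no p-value. Livers of controls and anesthetized rats were taken 6 h apart, so the effect of anesthesia and that of the time of day cannot be told apart here.

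CYP3A enzymes are monooxygenases of the endoplasmic reticulum that oxidize steroids, bile acids and a large share of drugs, with electrons passed on by the P450 reductase Por. In rat liver, *Cyp3a23/3a1* is the form best known for its induction by pregnane compounds and dexamethasone, *Cyp3a2* and *Cyp3a18* are known as male-predominant forms, *Cyp3a9* is more abundant in females, and *Cyp3a62* is best known from the intestine. Transcription of the inducible form is driven by the pregnane X receptor PXR (encoded by *Nr1i2*) and the constitutive androstane receptor CAR (*Nr1i3*), which pair with the retinoid X receptor and bind repeats of letters such as AGTTCA.

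The promoters of 3 members are shown because 1 of them, *Cyp3a23/3a1*, was higher after 6 h with both agents, *Cyp3a2* shares its repeat, and *Cyp3a9* was called higher with sevoflurane and not with desflurane. Each window holds the 250 bases before the transcription start on the coding strand, from RefSeq on the build GRCr8, and all 5 members were matched. Capitals mark AGTTCA or its reverse complement TGAACT.
*Cyp3a23/3a1*, minus strand, chr12:14398804-14399053: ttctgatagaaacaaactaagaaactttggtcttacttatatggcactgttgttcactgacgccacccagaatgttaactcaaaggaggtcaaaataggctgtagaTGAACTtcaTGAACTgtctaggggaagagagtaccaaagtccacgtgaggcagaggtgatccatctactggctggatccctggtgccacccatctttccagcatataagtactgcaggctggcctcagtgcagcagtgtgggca
*Cyp3a2*, minus strand, chr12:14343858-14344107: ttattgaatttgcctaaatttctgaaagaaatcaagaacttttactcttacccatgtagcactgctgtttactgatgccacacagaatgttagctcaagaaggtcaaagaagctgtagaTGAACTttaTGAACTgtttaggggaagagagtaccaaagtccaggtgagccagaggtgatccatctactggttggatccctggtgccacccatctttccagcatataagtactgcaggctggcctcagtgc
*Cyp3a9*, minus strand, chr12:21960161-21960410: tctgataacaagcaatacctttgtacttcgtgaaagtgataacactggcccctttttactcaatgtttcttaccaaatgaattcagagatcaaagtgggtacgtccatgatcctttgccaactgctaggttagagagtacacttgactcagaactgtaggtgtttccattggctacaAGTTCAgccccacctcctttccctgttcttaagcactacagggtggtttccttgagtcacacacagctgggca

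The letters AGTTCA were searched on both strands in this exact spelling, so repeats built from variants of it were not counted. The exact letters were present in all 5 Cyp3a windows and in 12.1% of 27457 rat promoters. The same letters repeated with 3 bases between them (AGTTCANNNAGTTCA) were present in 2 promoters, or 0.00728%, which were those of *Cyp3a23/3a1*, at 144 to 130 bases before the start, and of *Cyp3a2*, at 131 to 117 bases. The repeat with 4 bases between (AGTTCANNNNAGTTCA) was present in 4 promoters, or 0.0146%, and in 0 members. The everted form TGAACTNNNNNNAGTTCA was found in 0 promoters. The E-box CACGTG, the letters bound by the core clock factors, was held by 5.79% of promoters and by 1 member, *Cyp3a23/3a1*, at 103 to 98 bases before the start. The D-box TTATGTAA, bound by Dbp and Nfil3, was held by 0.816% of promoters and by 0 members. The windows of *Cyp3a23/3a1* and *Cyp3a2* were identical at 89.6% of 231 aligned bases, and those of *Cyp3a9* and *Cyp3a62* at 74.6% of 232, while the other pairs lay between 56.9% and 66.7%. The motifs were chosen with the known elements of these genes in mind, and a match describes the letters of the window only.

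All 5 members lay on chromosome 12 of rn6, the build named in the submitters' processing notes. *Cyp3a18* was listed on the plus strand at chr12:10636294-10684273, *Cyp3a62* on the plus strand at chr12:18679809-18709394, and *Cyp3a9* on the minus strand at chr12:19074288-19114491. The spans listed for *Cyp3a2* (minus strand, chr12:10716427-11677818) and *Cyp3a23/3a1* (minus strand, chr12:11053888-11733102) were 961 kb and 679 kb long, overlapped over 624 kb and each enclosed 12 named genes of other families, against spans of 29.6 to 48.0 kb for the other members. These are whole-gene spans, and exons and untranslated regions were not analysed here. The later build GRCr8 lists 3 further Cyp3a symbols (*Cyp3a73*, *Cyp3a2l1* and *Cyp3a71-ps*), which were not analysed here. Reads that fit several near-identical members could have been placed on any of them, and how they were divided is not given in the sources used here.

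Levels are given as the deposited TPM, which is scaled for gene length and library size. Comparing levels between genes has a limit for *Cyp3a23/3a1*, whose TPM was 1.51 to 1.80 times its level computed from the deposited coverage. *Cyp3a23/3a1* was at 487.8 TPM in sevoflurane 0 h, 1955 in sevoflurane 6 h, 615.6 in desflurane 0 h and 1265 in desflurane 6 h. Both 6 h libraries lay above both controls. In bulk liver, a change in the number of cells that express a gene and a change in RNA per cell cannot be told apart. *Cyp3a2*, the member with the highest level in both controls, was at 947, 1045, 1117 and 1257 TPM in the same order. The 6 h library was the higher of the pair for each agent, but sevoflurane 6 h lay below the desflurane control. *Cyp3a18*, the other male-predominant form, was at 687 TPM in sevoflurane 0 h, 695 in sevoflurane 6 h, 697 in desflurane 0 h and 559.6 in desflurane 6 h. Desflurane 6 h was the low library, and the other 3 were alike. *Cyp3a9* was at 49.4, 102, 49.4 and 47.4 TPM, so that sevoflurane 6 h stood above the other 3 libraries. *Cyp3a62* had the lowest level of the members in every library, with 10.96, 17.4, 15.1 and 15.4 TPM, and sevoflurane 0 h was the low library.

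**Figure D1:**
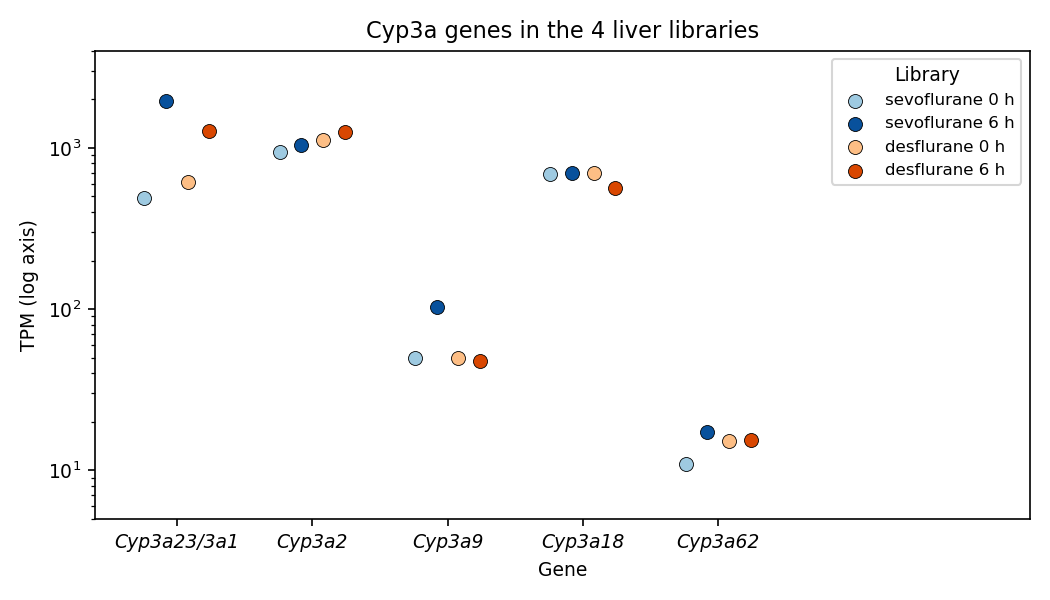
TPM of the 5 Cyp3a genes (logarithmic y axis, genes on the x axis), with 1 point per library. The 6 h libraries stand above both controls for *Cyp3a23/3a1*, and only sevoflurane 6 h, at 102 TPM, stands apart for *Cyp3a9*.

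The order of the levels in both controls was *Cyp3a2*, *Cyp3a18*, *Cyp3a23/3a1*, *Cyp3a9* and *Cyp3a62*. In both 6 h libraries *Cyp3a23/3a1* came first, before *Cyp3a2*, *Cyp3a18*, *Cyp3a9* and *Cyp3a62*. The first place in desflurane 6 h rested on 1265 against 1257 TPM, a gap smaller than the 1.18-fold difference of *Cyp3a2* between the controls. In levels computed from the deposited coverage, *Cyp3a2* came first in desflurane 6 h, with 1257 against 779 TPM. Among the 73 named cytochrome P450 genes, *Cyp3a23/3a1* moved in deposited TPM from rank 13 to rank 1 with sevoflurane and from rank 11 to rank 5 with desflurane. Rank 1 in sevoflurane 6 h rested on 1955 against 1936 TPM for *Cyp2c11*, which was at 1772 and 1365 TPM in the sevoflurane and desflurane controls. The level of *Cyp3a23/3a1* from coverage in that library, 1087 TPM, lay below the deposited TPM of *Cyp2c11* and of *Cyp2c6v1* (1460). Ranks from coverage were not computed. *Cyp3a2* stayed between ranks 4 and 6, *Cyp3a18* between 7 and 10, *Cyp3a9* between 24 and 29, and *Cyp3a62* between 35 and 36.

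The first comparison asked what differed between 6 h of sevoflurane and its control. A gene was called where the larger TPM exceeded 2 and the ratio exceeded 2, a rule of size without a test, and changes are differences of log2(TPM + 1). Of the 5 members, 2 were called higher and 0 lower, whereas 5.04% of the 8270 genes above the minimum were called higher and 3.71% lower. *Cyp3a23/3a1* was 4.01-fold higher (log2 change 2.001), and 62 of the 8270 genes (0.750%) had a larger positive change. *Cyp3a9* was 2.07-fold higher (1.04), with 270 genes (3.26%) above it. *Cyp3a9* lay close to the limit of the rule: after scaling each library by the median of its ratios its change was 0.98 and it was no longer called. The ratios of the members that were not called were 1.58 for *Cyp3a62*, 1.10 for *Cyp3a2* and 1.01 for *Cyp3a18*. The median log2 change was 0.62 over the 5 members and 0.05 over all genes tested.

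The same comparison for desflurane gave 1 member called higher and 0 lower, with 4.1% of 8372 genes called higher and 5.55% lower. *Cyp3a23/3a1* was 2.05-fold higher (log2 change 1.04), and 244 genes (2.91%) had a larger positive change. With a ratio above 3 in place of 2, *Cyp3a23/3a1* was called with sevoflurane and not with desflurane. The ratio of 6 h to 0 h was 1.13 for *Cyp3a2*, 1.02 for *Cyp3a62*, 0.959 for *Cyp3a9* and 0.802 for *Cyp3a18*. The median log2 change was 0.03 over the members and -0.10 over all genes tested.

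The controls were compared to see how far libraries without prolonged anesthesia lay apart, and this comparison shares a control with each comparison of 6 h with 0 h. None of the members was called, with 1.96% of 8263 genes called higher and 0.799% lower in the desflurane control. The ratio of the desflurane to the sevoflurane control was 1.38 for *Cyp3a62*, 1.26 for *Cyp3a23/3a1*, 1.18 for *Cyp3a2*, 1.02 for *Cyp3a18* and 1.0008 for *Cyp3a9*. The 4.01-fold and 2.05-fold differences of *Cyp3a23/3a1* were thus larger than its difference between the controls, whereas the 1.10-fold and 1.13-fold differences of *Cyp3a2* were smaller than its own.

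Between the 6 h libraries, which were taken after the same duration with different agents at different concentrations, 1 member was lower and 0 higher with desflurane, with 1.77% of 8229 genes called lower and 2.21% higher. *Cyp3a9* was 2.16-fold lower with desflurane than with sevoflurane (log2 difference -1.09). *Cyp3a23/3a1* was 1.55-fold lower with desflurane, *Cyp3a18* 1.24-fold lower and *Cyp3a62* 1.13-fold lower, and *Cyp3a2* was 1.20-fold higher, all within the limit of the rule.

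**Figure D2:**
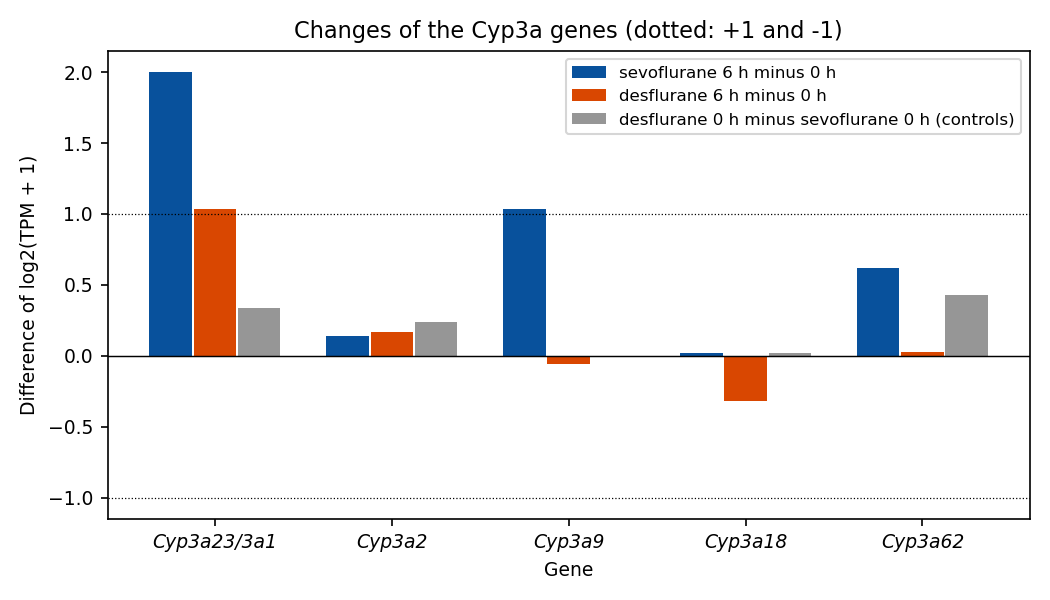
Differences of log2(TPM + 1) for the 5 Cyp3a genes (y axis, log2 units), with bars for sevoflurane 6 h minus 0 h, desflurane 6 h minus 0 h and the desflurane minus the sevoflurane control. Bars of *Cyp3a23/3a1* reach 2.001 and 1.04 against 0.34 between the controls, and *Cyp3a9* reaches 1.04 with sevoflurane and -0.06 with desflurane.

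A joint limma fit over all 4 libraries asked what 6 h and 0 h had in common across agents, with the agent as block. It left 1 residual degree of freedom, so that the error of a gene is borrowed largely from the other genes. Of the 8024 genes tested, 4.69% were higher and 3.94% lower at a Benjamini-Hochberg adjusted p under 0.05, and 19.9% had an unadjusted p under 0.05. *Cyp3a23/3a1* was higher after 6 h by 1.52 on the log2 scale (SE 0.18, 95% confidence interval 1.13 to 1.91, limma adjusted p = 0.000125) and rose with both agents. It was the 1 member of 5 to pass the threshold. *Cyp3a9* had a common change of 0.49 (SE 0.21, interval 0.02 to 0.96, limma adjusted p = 0.225), and by the rule of size it was called in the sevoflurane pair and not in the desflurane pair. The interval of the common change was -0.08 to 0.39 for *Cyp3a2*, -0.42 to 0.12 for *Cyp3a18* and -0.13 to 0.77 for *Cyp3a62*, with limma adjusted p-values of 0.498, 0.578 and 0.453. The call of *Cyp3a23/3a1* remained when any 1 library was left out, in a fit without the block that takes the lone library of a group to vary like the others, with limma adjusted p-values between 0.000689 and 0.0499, the largest without sevoflurane 0 h.

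The summed Cyp3a level was 2182 TPM in sevoflurane 0 h, 3815 in sevoflurane 6 h, 2494 in desflurane 0 h and 3145 in desflurane 6 h. The ratio of 6 h to 0 h was 1.75 for sevoflurane and 1.26 for desflurane, and the controls differed 1.14-fold. Without *Cyp3a23/3a1* the sum was 1694, 1859.8, 1879 and 1879.7 TPM, with ratios of 1.10 and 1.0005, so most of the difference in the sum lay in that gene. Its share of the summed Cyp3a TPM went from 22.4% to 51.2% after sevoflurane, and after desflurane from 24.7% to 40.2%. These shares rest on the deposited TPM, which for *Cyp3a23/3a1* alone was 1.51 to 1.80 times its level from coverage. With coverage its shares would be lower. The share of *Cyp3a2* went from 43.4% to 27.4% after sevoflurane, and after desflurane from 44.8% to 40.0%, while its own TPM was not lower. The share of *Cyp3a18* went from 31.5% to 18.2% and from 28.0% to 17.8%. *Cyp3a9* and *Cyp3a62* held between 1.51% and 2.68% and between 0.455% and 0.606% of the sum.

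**Figure D3:**
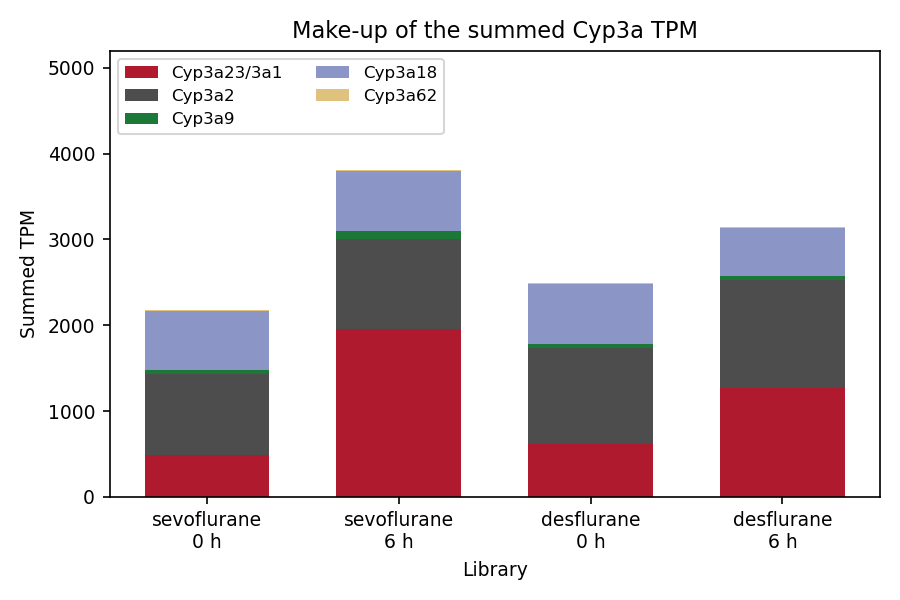
Make-up of the summed Cyp3a level in the 4 libraries, as stacked bars of deposited TPM per gene, not of levels from coverage. The segment of *Cyp3a23/3a1* is 22.4% and 24.7% of the bar in the controls and 51.2% and 40.2% in the 6 h libraries.

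Among all 73 named P450 genes, the Cyp3a members held 16.1% of the P450 TPM in sevoflurane 0 h, 24.4% in sevoflurane 6 h, 16.4% in desflurane 0 h and 21.4% in desflurane 6 h. These shares rest on the deposited TPM, and with coverage for *Cyp3a23/3a1* they would be lower. They also depend on the other families. The Cyp4a family went from 1070 to 184 TPM with sevoflurane and from 2056 to 350 with desflurane. In summed TPM, the ratio of 6 h to 0 h was 2.82 with sevoflurane and 2.04 with desflurane for the Cyp2b family, known for its induction through CAR. The Cyp2c and Cyp2a families, which also hold targets of CAR and PXR, had ratios of 0.946 and 0.902 and of 0.779 and 0.974. The sum of all P450 genes had ratios of 1.16 and 0.966.

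The size of the *Cyp3a23/3a1* change depended on which deposited value was read. Its mean coverage per base, a value not scaled for library size, was 763, 3719, 1319 and 2834. Converted to the TPM scale of each library, this coverage gave 323, 1087, 382 and 779, so that the deposited TPM was 1.51, 1.80, 1.61 and 1.62 times as high. For each of the other 4 members, both values were equal within 1% in every library. With coverage in place of TPM, *Cyp3a23/3a1* was still called higher with both agents, and its common change was 1.39 (limma adjusted p = 0.000187).

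The tables also hold loci assembled from the reads without a gene name, and these did not separate *Cyp3a2* from *Cyp3a23/3a1*. The assembled loci on their strand that overlapped their spans and no other named gene were drawn up separately in each library. They numbered 8, 5, 7 and 9, covered 495, 464, 516 and 226 kb, and summed to 4978, 5281, 4042 and 5121 TPM, with a mean weighted by length of 670, 1290.2, 606 and 1079 TPM. Because the loci differed in number and length between libraries, their sums were not read as fold changes. They enter the section on processing only as an alternative source of values. The sum of the named *Cyp3a2* and *Cyp3a23/3a1* values was 1435, 3000.02, 1732 and 2522 TPM. The ratios of 6 h to 0 h were 2.09 with sevoflurane and 1.46 with desflurane, so that the summed pair passed the rule of size with sevoflurane and not with desflurane. The call with sevoflurane lay close to the limit. It was lost against the desflurane control, and when the level of *Cyp3a23/3a1* from coverage replaced its TPM. *Cyp3a9* was assembled as 2 loci covering 37.7 kb in every library, whose summed TPM was 98.1, 202, 98.2 and 93.6. The mean of these loci weighted by length was 49.4, 102, 49.3 and 46.9 TPM. Its ratio of 6 h to 0 h with sevoflurane was 2.05 in the summed loci and 2.07 in the named value. Both come from the same reads, so their closeness is not a separate check. *Cyp3a18* and *Cyp3a62* were assembled as 1 locus each, with ratios of 1.005 and 1.58 with sevoflurane and 0.802 and 1.03 with desflurane.

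**Figure D4:**
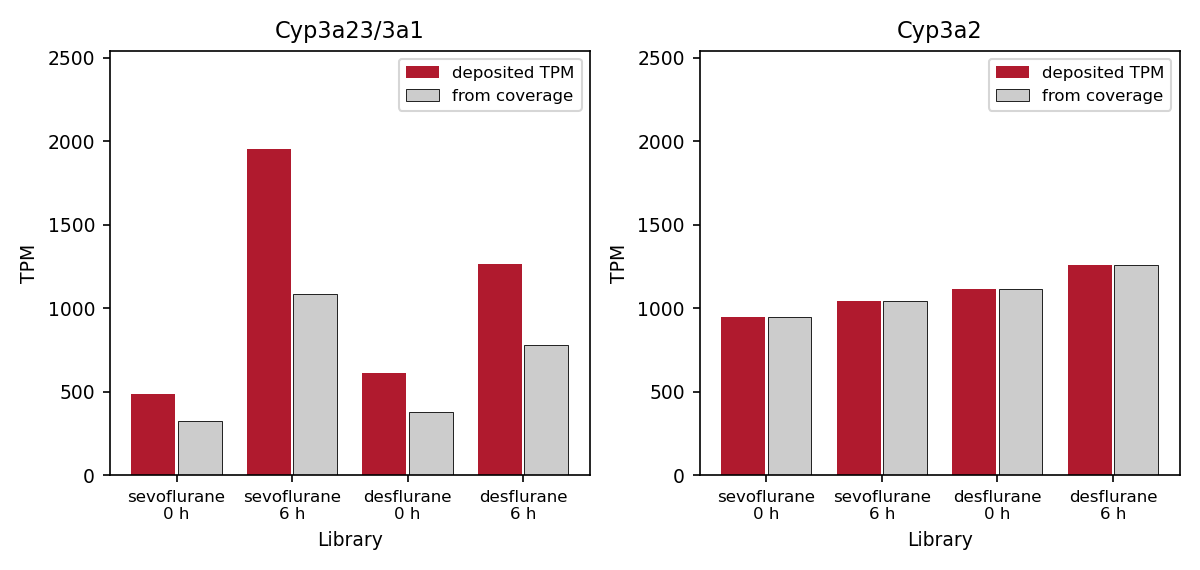
Deposited TPM beside the level computed from coverage in each library (y axes in TPM, from 0), for *Cyp3a23/3a1* on the left and *Cyp3a2* on the right. The 2 bars are equal for *Cyp3a2*, while for *Cyp3a23/3a1* the deposited TPM is 1.51 to 1.80 times the level from coverage.

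Of 18 receptors and factors known to act on Cyp3a transcription, 17 reached a mean TPM of 1 and *Vdr*, the vitamin D receptor, was listed at 0 in every library. With sevoflurane 3 were called higher and 0 lower (median log2 change 0.15), and with desflurane 4 higher and 1 lower (0.06). For this list and those below, 5.04% of all genes tested were called higher and 3.71% lower with sevoflurane. With desflurane these shares were 4.1% and 5.55%. *Nr1i2*, which encodes PXR, was at 25.998 TPM in sevoflurane 0 h and 99.7 in sevoflurane 6 h, and at 34.1 in desflurane 0 h and 90.9 in desflurane 6 h. It was 3.83-fold and 2.66-fold higher at 6 h, and its common change was 1.64 (SE 0.16, limma adjusted p = 3.84e-05). *Nr1i2* and *Cyp3a23/3a1* thus had the same order of libraries, with sevoflurane 6 h the highest. *Ppargc1a*, a coactivator of the fasting response, went from 0.03 to 2.48 TPM and from 0.41 to 9.09 (common change 2.30, limma adjusted p = 0.000240). *Cebpb*, a liver-enriched bZIP factor, went from 42.3 to 79.3 TPM with sevoflurane, under the limit of the rule, and from 28.4 to 168 with desflurane (common change 1.71, limma adjusted p = 0.00171). *Foxo1*, a forkhead factor repressed by insulin, was the remaining gene called higher with both agents, and *Foxa2* was the gene called lower with desflurane, both named after their values were seen.

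Other receptors of the list were not called with either agent. *Nr1i3*, which encodes CAR, was at 25.8, 26.3, 44.0 and 29.6 TPM in the order of the libraries above (limma adjusted p = 0.495). *Rxra*, the partner of PXR and CAR, was at 55.5, 68.7, 59.0 and 76.0 TPM (limma adjusted p = 0.215). *Hnf4a*, which maintains hepatocyte expression of P450 genes, was at 86.4, 102, 129 and 97.9 TPM (limma adjusted p = 0.861). *Nr3c1*, the glucocorticoid receptor, was at 52.2, 28.5, 36.4 and 24.9 TPM and was lower in the common change (fell by 0.69 on the log2 scale, SE 0.16, limma adjusted p = 0.0194). The receptors thus did not move together, and *Nr1i2* was the 1 nuclear receptor of the list called higher.

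Of 13 genes that carry electrons to P450 enzymes or make their heme, 2 were called higher with each agent, 0 lower with sevoflurane and 1 lower with desflurane. *Por*, the reductase, went from 21.8 to 538 TPM after sevoflurane, and after desflurane from 28.6 to 386 (common change 4.14, limma adjusted p = 6.72e-08). *Alas1*, the rate-limiting enzyme of heme synthesis in liver, went from 73.5 to 582 TPM and from 60.9 to 979 (common change 3.48, limma adjusted p = 3.11e-07). *Uros*, a later enzyme of the same pathway, went from 3.96 to 3.37 and from 5.92 to 2.30 TPM, and was the gene called lower with desflurane. The median log2 change of the list was -0.10 and -0.03, so the other members did not follow *Por* and *Alas1*.

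Of 29 other targets of PXR and CAR, 28 were listed and 25 reached a mean TPM of 1. With sevoflurane 6 were higher and 0 lower (median log2 change 0.32), and with desflurane 8 were higher and 0 lower (0.21). *Cyp2b1*, the phenobarbital-inducible P450, went from 5.73 to 789.99 TPM after sevoflurane (138-fold), and after desflurane from 12.1 to 465 (38.4-fold). *Cyp2b2*, its close paralog, went from 35.5 to 418 and from 29.8 to 217 TPM, and reads shared between these paralogs may have been divided between them. *Gadd45b*, a stress-inducible gene and coactivator of CAR, went from 1.31 to 32.8 and from 1.60 to 72.5 TPM. The drug efflux pump *Abcb1a* went from 2.76 to 22.1 and from 4.99 to 12.7 TPM, *Abcb1b* from 0.85 to 3.47 and from 1.43 to 3.14, and the carboxylesterase *Ces2c* from 10.4 to 39.2 and from 9.66 to 20.7. All 3 were named once their values had been seen. *Gsta3* and *Thrsp* completed the genes called higher with desflurane, so the 6 genes called with sevoflurane were all called with desflurane too.

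**Figure D5:**
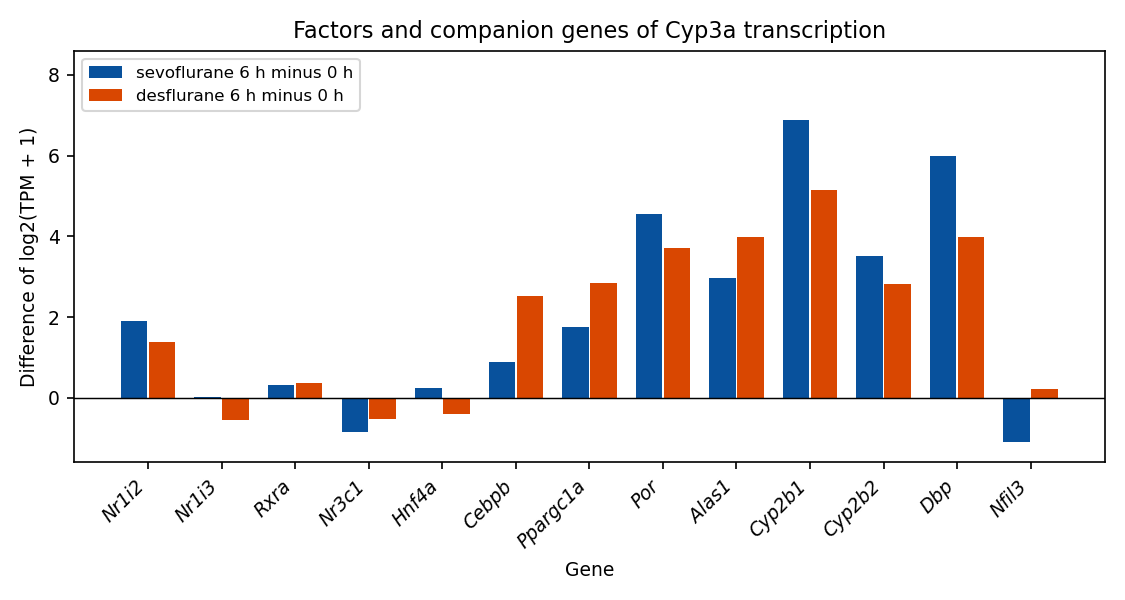
Differences of log2(TPM + 1) between 6 h and 0 h (y axis, log2 units) for factors of Cyp3a transcription and companion genes, with 1 bar per agent. *Nr1i2* reaches 1.90 and 1.39, *Cyp2b1* 6.88 and 5.15, and *Nr1i3*, *Rxra* and *Hnf4a* lie between -0.56 and 0.36.

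Genes that follow the time of day and glucocorticoids also differed between 6 h and 0 h in these libraries. Of 8 genes on a list of clock output genes, 6 were listed. *Por*, called higher with both agents, is on this list too, so it was counted here and among the electron carriers. With sevoflurane 5 were higher and 1 lower (median log2 change 2.58), and with desflurane 5 were higher and 0 lower (1.38). *Dbp*, a clock-driven bZIP activator, went from 0.40 to 87.9 TPM and from 1.92 to 44.8 (common change 4.98, limma adjusted p = 2.56e-06). *Nr1d1*, the clock repressor REV-ERBα, went from 0.41 to 7.65 and from 2.41 to 7.95 TPM. *Nfil3*, which represses the genes that Dbp activates, went from 17.7 to 7.66 TPM after sevoflurane, and after desflurane from 15.2 to 18.0. Of 14 glucocorticoid response genes, sevoflurane had 10 higher and 1 lower (median log2 change 2.09), and desflurane had 9 higher and 0 lower (2.20). The metallothionein *Mt2A* went from 6.98 to 580.2 and from 123 to 948 TPM, *Mt1* from 13.2 to 424 and from 140 to 649.7, and *Igfbp1*, an insulin-repressed gene, from 5.29 to 42.7 and from 2.74 to 154. The part of these changes in the Cyp3a values was not tested.

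Position in the liver lobule also bears on P450 genes, which are mostly expressed near the central vein. Of 13 pericentral genes, 1 was called higher and 0 lower after sevoflurane, and 3 higher and 1 lower after desflurane (median log2 change 0.11 and 0.22). With 13 genes, the 1 call with sevoflurane lay near the 5.04% of all genes called higher. *Oat*, a pericentral aminotransferase, went from 139 to 402 and from 108 to 305 TPM, the ethanol-oxidizing *Cyp2e1* from 543 to 1015 and from 610 to 1364, and the glutamate transporter *Slc1a2* from 2.47 to 4.91 and from 1.48 to 5.60. Of 12 periportal genes, 4 were higher and 1 lower with each agent (0.63 and 0.59), and *Sds*, a serine-degrading enzyme, went from 8.66 to 1135 and from 19.8 to 714 TPM. The urea cycle enzymes *Arg1* and *Asl* went from 708 to 2104 and from 101 to 380 TPM with sevoflurane, and with desflurane from 886 to 1822 and from 130 to 459. Both lists held genes called higher and genes called lower. Their part in the Cyp3a values was not tested.

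The label liver was checked on 8 hepatocyte markers, whose summed level was between 102548 and 114570 TPM with 0 called. Sums over markers of Kupffer cells (317 to 416 TPM), endothelial cells (108 to 130), stellate cells (31.4 to 41.1), cholangiocytes (7.05 to 8.67) and leukocytes (6.74 to 9.63) were small beside them. Among small intestinal markers, where *Cyp3a62* is best known, *Lct* was listed at 0 in every library and 2 of 5 reached a mean TPM of 1, with the sum (560.3 to 595 TPM) carried by *Apob*, which hepatocytes also express. Red blood cell markers summed to 453, 1215, 728 and 1343 TPM, higher at 6 h with both agents. Of the 4 listed, 3 were called higher with sevoflurane and 0 with desflurane. Their part in the results was not tested.

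The genes whose levels over the 4 libraries were most like each member were found by the root mean square distance of centred log2(TPM + 1) among 3989 genes that reached a mean TPM of 10. The nearest to *Cyp3a23/3a1* was *Abcg5*, a sterol transporter of the canalicular membrane, at 6.97, 33.4, 9.58 and 20.6 TPM and a distance of 0.039, followed by *Hacl1*, a peroxisomal lyase, at 72.3, 236, 89.5 and 158 TPM and a distance of 0.134. Only *Abcg5* lay within a distance of 0.1 of *Cyp3a23/3a1*. The nearest to *Cyp3a9* were *RGD1309534* (39.0, 67.4, 35.7 and 34.3 TPM, distance 0.092) and *Amdhd1*, an enzyme of histidine breakdown (28.9, 63.5, 24.7 and 26.6 TPM, distance 0.108). Within 0.1 of *Cyp3a2* lay 295 genes, of *Cyp3a18* 439 and of *Cyp3a62* 133. The profiles were centred but not scaled, so these counts depend on how much a member changes. They do not measure how rare its pattern is. Among the nearest were *Ghitm* for *Cyp3a2* (0.019), *Mrps14* (0.0087) and *Dnajc10* (0.016) for *Cyp3a18*, *Pum3* (0.012) and *Atp6v1b2* (0.015) for *Cyp3a62*, and *Tmem38b* (0.016) and *Esrra* (0.029) for the sum of the 5 members. With 4 libraries such distances are a description only.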

How the data were processed

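RNA-seq of liver was deposited as 1 StringTie gene table per library. The submitters' processing notes name HISAT2, SAMtools, StringTie and the build rn6; versions and annotation: not given in the sources used here. TPM values deposited by the authors were handled as a score, because assembled loci alone fill the total of the column and named genes come on top. The deposited FPKM differed from TPM by a factor of 1.48 to 1.57. The deposited coverage, a signal per base, was divided by FPKM to obtain the aligned bases, which were 3.50 Gb (0 h) and 5.38 Gb (6 h) for sevoflurane and 5.29 Gb (0 h) and 5.57 Gb (6 h) for desflurane; this ratio was constant within 1% for 97.1% to 97.4% of the named entries. A TPM of 2 corresponded to 4.72-fold coverage in sevoflurane 0 h and 6.84-fold to 7.28-fold in the others. No read counts were available, so counting intervals could not be given.

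Entries of 1 symbol were summed and those of 200 bp or less left out. Genes were called by TPM above 2 and a ratio above 2, and changes used log2(TPM + 1), which understates low genes. The common change was fitted with limma 3.58.1 in R 4.3.3 (eBayes with trend, two-sided, mean TPM of at least 2) and other steps with Python 3.11.15; both were tested on simulated data. Groups came from the sample titles. The members, the lists, the tests and the alternatives were chosen with earlier results of these data known. Named were the members, per list the count called and the 3 genes with the largest mean change, 8 fixed factors, and the 2 genes most like each member and their sum, of which 1 gene is not reported here. Alternatives covered the pseudocount, the TPM minimum, the ratio, the scaling, the control, the source of the values and each library left out of the common change.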

Additional observations from a re-analysis of the deposited data

Results flagged for a closer look

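Some changes had opposite signs with sevoflurane and desflurane, each in 1 pair of libraries, and the difference between the agents was not tested. For *Cyp3a9*, *Cyp3a18*, *Nr1i3*, *RGD1309534* and *Mrps14*, the smaller of the changes lay between -0.06 and 0.03. That is within 0.18, the median difference of genes between the controls, so the sign of that change is not settled. *Cyp3a9* changed by 1.04 (log2) with sevoflurane and -0.06 with desflurane, a difference of -1.10. *Cyp3a18* changed by 0.02 and -0.32, a difference of -0.33. Among its factors, *Hnf4a* changed by 0.24 and -0.40 (difference -0.64), *Nr1i3* by 0.03 and -0.56 (-0.59), and *Nfil3* by -1.11 and 0.23 (1.33). Of the genes with patterns like a member, *RGD1309534* changed by 0.78 and -0.06 (-0.83) and *Mrps14*, the nearest to *Cyp3a18*, by 0.02 and -0.29 (-0.32). Of these, *Cyp3a9* with sevoflurane and *Nfil3* with sevoflurane passed the rule of size.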

How the results depend on the processing

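The labels carry no replicate numbers, and the limma fit paired 6 h with 0 h by agent; without this block *Cyp3a23/3a1* was still called (limma adjusted p = 0.00608). A value without a test was taken to have moved when it shifted by more than 0.18 on the log2 scale, the median difference of genes between the controls. No called result changed direction. The count of members called with sevoflurane was 2 and became 1 with a ratio above 3 (*Cyp3a23/3a1*), 1 with median-of-ratios scaling (*Cyp3a23/3a1*) and 1 with assembled loci (*Cyp3a9*). With desflurane it was 1 and became 0 with a ratio above 3 and 0 with assembled loci, which also pool *Cyp3a2* with *Cyp3a23/3a1*; pooled, the named values of the pair were likewise not called with desflurane (ratio 1.46). Between the 6 h libraries it was 1, 2 with a ratio above 1.5 and 0 with a ratio above 3. The summed log2 change was 0.81 with sevoflurane, but 0.55 with coverage, 0.61 against the other agent's control and 0.10 with assembled loci. With desflurane it was 0.33 and became 0.53 against the other agent's control. The summed difference between the controls was 0.19 and became -0.25 with assembled loci. In the limma fit the count was 1 member, and 1 to 2 with a library left out: without desflurane 6 h, *Cyp3a9* was added (change 1.04, limma adjusted p = 0.0126), whereas without sevoflurane 6 h its change was -0.06 (limma adjusted p = 0.911). The loci of that pair differed in number and length between libraries, so their values are not fold changes. The coverage and assembled-locus alternatives were chosen after seeing the data, and the cause of these shifts was not tested. The median of all genes differed by -0.10 with desflurane and 0.11 between the controls before that scaling. The shallower sevoflurane 0 h library limits the precision of low values most.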

Other observations

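Growth hormone acts on liver through Stat5 and sets the sex-biased P450 genes, among them *Cyp3a18* and *Cyp3a2*. Of 17 genes of this list, 1 was higher and 3 lower with sevoflurane (median log2 change -0.13) and 0 were higher and 5 lower with desflurane (-0.56). *Socs2*, a feedback inhibitor induced by growth hormone, went from 44.5 to 12.5 TPM with sevoflurane and from 29.8 to 8.98 with desflurane (common change -1.69, limma adjusted p = 5.55e-05). *Stat5a* went from 6.27 to 2.47 and from 4.34 to 1.41 TPM (-1.11, limma adjusted p = 0.0102), and *Cyp4a2*, a fatty acid hydroxylase, from 558 to 76.9 and from 1075 to 165 (-2.77, limma adjusted p = 6.72e-08). The gene called higher with sevoflurane was *Cyp2c12*, the P450 known as specific to female rat liver, at 49.2 TPM in the control and 111 at 6 h, named after its values were seen. With desflurane *Cyp2c12* went the other way, from 27.3 to 20.5 TPM, and was not called. The sex of the rats is not given in the sources used here, and *Cyp3a18* and *Cyp3a2* themselves were not called with either agent.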
